A study of Homo sapiens with 24 samples.

Results

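The 38 genes described here encode collagen chains, laminin chains and other proteins of the extracellular matrix. They are a fixed list of gene names, chosen with earlier results of these data known, and make up 38 of the 60660 features of the tables. Their counts and medians, set beside those of all genes, therefore describe this list and do not test it. They comprise 6 fibrillar collagen chains, 5 basement membrane collagen chains, 9 chains of other collagen types, 8 laminin chains, 4 proteoglycan and link protein genes and 6 adhesive or matricellular proteins. RNA came from 24 libraries of LNCaP and PC3, established human prostate cancer lines from a lymph node and a bone metastasis. For each line there were parental cells and a derivative named CE for chronic exposure, and each kind of cell was measured after 4 h of 10 µM Acetalax and without treatment (control). This gave 8 groups of 3 libraries: LNCaP CE Acetalax, LNCaP CE control, LNCaP parental Acetalax, LNCaP parental control and the same 4 for PC3. Per the labels, CE cells were passaged in rising Acetalax until resistant and then kept for 2 weeks without the drug, so the CE controls had earlier contact with it. Acetalax is oxyphenisatin acetate, a former laxative. LNCaP was grown in RPMI-1640 and PC3 in F-12, so medium and line cannot be told apart. The labels speak of biological triplicates without naming separate cultures or clones, so the spread behind the p-values may not be that between separate cultures.

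Collagens are assembled from 3 chains that wind around each other. Fibrillar collagens form the load-bearing fibres of connective tissue, and the collagen of basement membranes forms a sheet beneath epithelia. Laminins are cross-shaped proteins of one alpha, one beta and one gamma chain that hold epithelial cells to that sheet. Proteoglycans such as decorin organise collagen fibres, and matricellular proteins such as thrombospondin, periostin and SPARC modulate how cells attach. In the prostate, epithelial cells make the laminins of their basement membrane, while most fibrillar collagen is made by stromal cells.

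Levels with ± are mean and SD of TPM over the 3 libraries of a group. The libraries held 40160832 to 57728014 expected counts each. Markers of the labelled cells were checked before the results. Of 8 epithelial markers, which include the adhesion proteins EPCAM and CDH1, the summed level was 7.95 to 9.74 TPM in LNCaP CE controls and 1297 to 1625 TPM in LNCaP parental controls. It was 25.8 to 28.1 TPM in PC3 CE controls and 3133 to 3605 TPM in PC3 parental controls. KLK3, which encodes prostate-specific antigen, stood at 0.777 TPM in LNCaP CE controls and 4399 TPM in LNCaP parental controls. PC3 is known to lack the catenin gene CTNNA1, yet it stood at 169.5 ± 3.14 TPM in PC3 CE controls, against 1.04 ± 0.696 TPM in PC3 parental controls. The CE libraries therefore go against the epithelial cell type and, for PC3, against the line that their labels give, and LNCaP CE and PC3 CE stand below for the libraries so labelled.

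Markers of other cell types moved with the CE label. Of 8 fibroblast markers, 6 were called higher in each CE comparison and none lower, and their summed level was 104 to 113 TPM in LNCaP CE controls and 3.28 to 6.43 TPM in LNCaP parental controls. It was 859 to 897 TPM in PC3 CE controls and 5.52 to 5.82 TPM in PC3 parental controls. THY1 and ACTA2 held most of it, with 93.0 and 8.14 TPM in LNCaP CE controls and 156 and 714 TPM in PC3 CE controls. PDGFRA, called higher in both, was at 1.51 TPM in LNCaP CE and 0.0333 TPM in LNCaP parental controls, and at 0.327 TPM in PC3 CE and 0.0733 TPM in PC3 parental controls. TCF21 was at 0.16 TPM in LNCaP CE controls, where it was called higher, and at 0.0767 TPM in PC3 CE controls, where it had too few counts to be tested. FAP had too few counts in both lines. Of 7 melanocyte markers only TYRP1 was above 1 TPM in CE controls (20.9 TPM in LNCaP CE and 379.6 TPM in PC3 CE), with MLANA and SOX10 listed at 0. The summed level of 6 endothelial markers was at most 0.99 TPM in any CE control, and that of 5 immune markers was 8.59 to 11.6 TPM, nearly all from CD68. Their part in the results was not tested. In bulk RNA, fewer cells of a type and less RNA per cell cannot be told apart.

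At the level of single libraries, LNCaP parental control 2 and LNCaP parental Acetalax 3 stood apart from the others of their groups, as did PC3 CE Acetalax 1. Of the 20 matrix genes with a mean of at least 1 TPM, 18 were lower in control 2 than in both other LNCaP parental controls, and 17 of 20 were lower in Acetalax 3 than in both other treated libraries. Over all genes at that level the shares were 48.9% and 52.2%. COL16A1, a minor fibril-associated collagen, was at 24.0, 15.8 and 1.17 TPM in LNCaP parental Acetalax libraries 1, 2 and 3 and at 13.8, 1.01 and 12.8 TPM in LNCaP parental controls 1, 2 and 3. COL7A1, the anchoring fibril collagen of epithelia, was at 41.2, 38.7 and 10.9 TPM in the treated libraries and 33.5, 7.18 and 28.6 TPM in the controls. In PC3 CE Acetalax 1, THBS1 stood at 3.03 times, COL13A1 at 3.71 times and COL7A1 at 2.38 times the mean of the other libraries of that group. Those 3 genes are 10.7% of the 28 matrix genes at or above 1 TPM there, against 10.6% of all genes with at least a 2-fold excess in that library. Marker sums moved with these libraries. PC3 CE Acetalax 1 had 378 TPM of summed fibroblast markers, against 805 and 867 TPM in PC3 CE Acetalax 2 and 3. The summed luminal markers, which include KLK3, were 4595 TPM in LNCaP parental Acetalax 3 (7193 and 6978 TPM in libraries 1 and 2) and 5122 TPM in control 2 (7852 and 8076 TPM in controls 1 and 3). The summed epithelial markers were 1424 TPM in Acetalax 3 (1780.4 and 1725 TPM in libraries 1 and 2) and 1297 TPM in control 2 (1599.9 and 1625 TPM in controls 1 and 3). Fibroblast markers ran the other way, at 5.83 TPM in Acetalax 3 (2.75 and 2.43 TPM) and 6.43 TPM in control 2 (3.30 and 3.28 TPM). Their part in the results was not tested. Counts of called matrix genes that rest on these libraries are given with and without them.

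**Figure D1:**
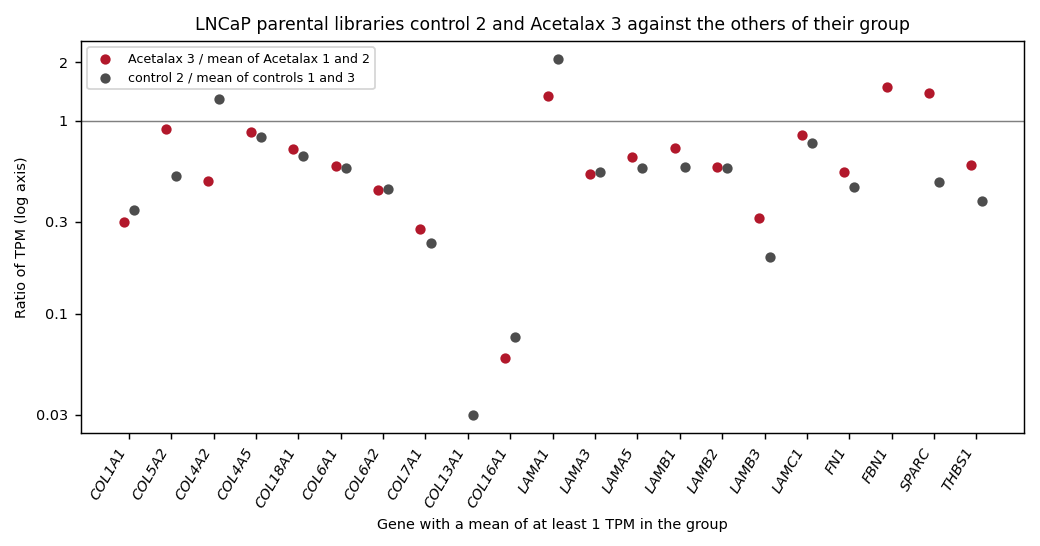
TPM of each matrix gene in LNCaP parental Acetalax 3 (red) and control 2 (grey), divided by the mean of the other libraries of its group, on a log axis for genes with a mean of at least 1 TPM in that group. Most points lie below 1, and COL16A1 is lowest in Acetalax 3 (0.0587) and second lowest, after COL13A1 (0.0299), in control 2 (0.0759).

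The 4 kinds of cells used different matrix genes. In LNCaP CE controls, HAPLN1, COL3A1 and POSTN made up 55.0% of the summed TPM of the 38 genes (2924 TPM), and 9 genes had at least 100 TPM. In LNCaP parental controls, FN1, LAMB2 and LAMC1 made up 66.1% of 994 TPM, and 3 genes had at least 100 TPM. In PC3 CE controls, COL1A2, COL3A1 and COL5A2 made up 69.2% of 5063 TPM. In PC3 parental controls the leading genes were THBS1, LAMB2 and LAMA5, with 49.99% of 5210 TPM. By role, fibrillar collagens summed to 923 TPM in LNCaP CE and 19.5 TPM in LNCaP parental controls, and to 3521 TPM in PC3 CE and 98.3 TPM in PC3 parental controls. Laminins ran the other way, at 292 TPM in LNCaP CE and 443 TPM in LNCaP parental controls, and at 633 TPM in PC3 CE and 2495 TPM in PC3 parental controls. The 4 proteoglycan and link protein genes summed to 1007 TPM in LNCaP CE and 0.517 TPM in LNCaP parental controls, and to 400.0 TPM in PC3 CE and 5.53 TPM in PC3 parental controls. TPM are scaled for gene length, so these levels can be compared between genes.

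**Figure D2:**
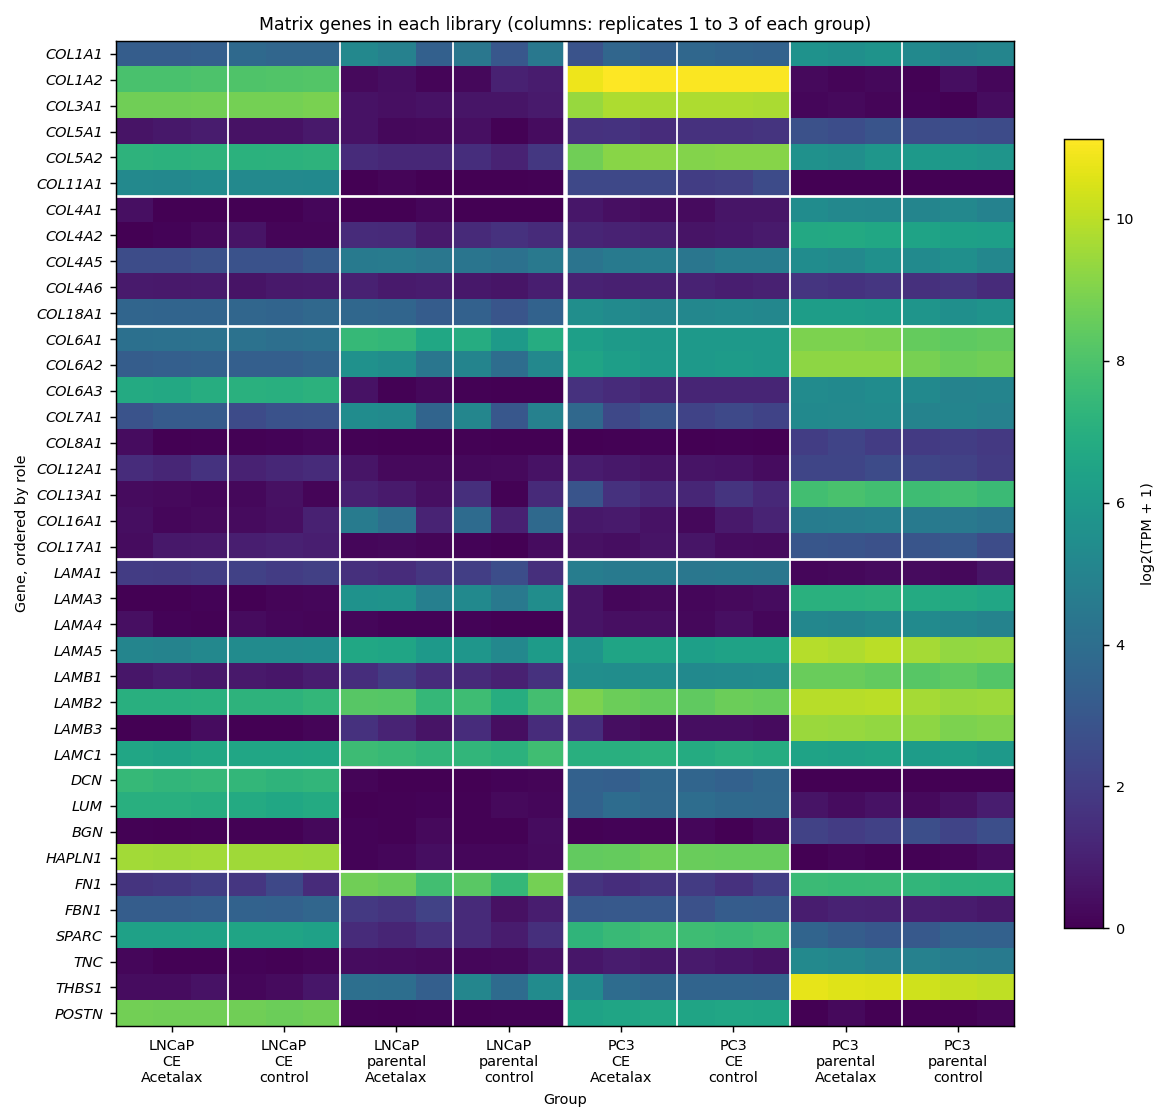
Level of each of the 38 matrix genes (rows, ordered by role) in each of the 24 libraries (columns), as log2(TPM + 1) by colour. COL1A2, COL3A1, COL5A2, HAPLN1, SPARC and POSTN are bright in both CE blocks, while LAMA3, FN1 and THBS1 are brighter in both parental blocks and LAMB3 in PC3 parental libraries.

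The 4 upstream stretches below are shown because the genes beside them lie at the extremes of the results: POSTN was among the genes with the largest rise in both lines, LAMB3 had the largest fall in PC3, THBS1 was the most abundant member in PC3 parental cells, and COL4A5 starts 379 bases from COL4A6. Sequences are RefSeq promoter windows on GRCh38.p14, read 5′ to 3′ on the strand of the gene, without bases that lie in GENCODE exons. Capitals mark matches on either strand to the GC box (GGGCGG), the CCAAT box (CCAAT), the TATA box (TATAAA) and the AP-1 site (TGANTCA). The POSTN stretch (chr13:37598845-37599018, minus strand) holds a TATA box and an AP-1 site, and LAMB3 (chr1:209652467-209652675, minus strand) a GC box. THBS1 (chr15:39580829-39581078, plus strand) holds 4 GC boxes and a CCAAT box directly beside the last of them. COL4A5 (chrX:108439588-108439837, plus strand) holds 2 CCAAT boxes.
POSTN: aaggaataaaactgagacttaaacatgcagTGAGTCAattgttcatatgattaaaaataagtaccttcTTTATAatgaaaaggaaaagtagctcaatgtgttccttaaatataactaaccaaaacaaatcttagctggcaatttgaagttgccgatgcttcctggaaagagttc
LAMB3: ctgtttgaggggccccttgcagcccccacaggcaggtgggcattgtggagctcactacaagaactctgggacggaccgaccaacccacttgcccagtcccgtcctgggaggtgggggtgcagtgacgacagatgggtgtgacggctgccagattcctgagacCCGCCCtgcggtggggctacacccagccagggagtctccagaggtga
THBS1: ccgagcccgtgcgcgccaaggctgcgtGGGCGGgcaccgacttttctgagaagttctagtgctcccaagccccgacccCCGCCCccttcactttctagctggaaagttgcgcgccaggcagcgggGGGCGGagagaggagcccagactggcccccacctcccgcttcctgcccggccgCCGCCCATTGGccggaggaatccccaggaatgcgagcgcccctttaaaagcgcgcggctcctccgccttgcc
COL4A5: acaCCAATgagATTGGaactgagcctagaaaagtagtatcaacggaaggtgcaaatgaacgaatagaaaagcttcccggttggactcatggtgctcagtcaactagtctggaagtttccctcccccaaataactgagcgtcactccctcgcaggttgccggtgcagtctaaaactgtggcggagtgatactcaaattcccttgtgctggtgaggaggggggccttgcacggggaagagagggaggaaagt

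Windows were found for 29 of the 38 genes, 34 windows in all, each from 250 bases before to 50 bases after a start. A GC box occurred in 24 of the 34 and in 45.0% of 35116 windows of all genes. The CCAAT box occurred in 9 (34.6% of all windows), the TATA box in 6 (11.5%) and the AP-1 site in 3 (7.71%). These matches describe letters in a window and say nothing of binding.

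The first comparison asked how CE cells differed from parental cells without drug. COL1A2, COL3A1, COL5A2 and COL11A1, the link protein, decorin, lumican and periostin were far higher in CE controls of both lines. COL1A1 and COL5A1, the other listed chains of collagens I and V, did not rise in both lines. Chains of the epithelial laminin, fibronectin and thrombospondin were far lower. All 38 matrix genes were tested in PC3, and all were called in PC3 CE controls against PC3 parental controls, 12 higher and 26 lower, where 77.5% of all 20049 genes tested were called (38.5% higher and 39.0% lower). In LNCaP, 34 were tested and 29 called, 16 higher and 13 lower, where 75.3% of 19393 genes were called (36.0% higher and 39.3% lower). With backgrounds of that size, being called is common and the sizes of the changes carry the description. COL4A1, COL8A1, LAMA4 and BGN had too few counts to be tested in LNCaP, and COL1A1, COL4A6, LAMA5, LAMB2 and TNC were tested and not called there. A gene that passed the count filter only through the group where it was high had to differ, so these counts do not support a direction. Without LNCaP parental control 2 and Acetalax 3 the LNCaP count was 33, 17 higher and 16 lower, where 84.8% of all genes were called. The 4 genes added were COL8A1, which was then tested and higher (log2 1.82, adjusted p = 0.0382), and LAMA5, LAMB2 and TNC, which were lower. Without PC3 CE Acetalax 1 in the fit the PC3 count stayed at 38. The tool was edgeR's quasi-likelihood test on rounded expected counts, with p-values adjusted by Benjamini-Hochberg over all genes. Every fold change below is log2, and ± after a fold change is its standard error. Unless a library was left out, a comparison of groups sets 3 against 3 libraries. A difference of changes draws on the groups of both changes. The standard error rests on spread pooled over all libraries of the fit, not on the compared groups alone. That fit holds a whole line, or both lines for comparisons between lines.

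In both lines 11 genes were higher in CE controls, namely COL1A2, COL3A1, COL5A2, COL11A1, LAMA1, DCN, LUM, HAPLN1, FBN1, SPARC and POSTN, although LAMA1 in LNCaP was higher by counts and not by TPM. In both lines 12 were lower: COL4A2, COL4A5, COL6A1, COL6A2, COL7A1, COL13A1, COL16A1, LAMA3, LAMB1, LAMB3, FN1 and THBS1. COL5A1, COL18A1, COL6A3, COL12A1 and COL17A1 were higher in LNCaP CE and lower in PC3 CE, and LAMC1 was lower in LNCaP CE and higher in PC3 CE. The remaining 9 were lower in PC3 CE and either not called or not tested in LNCaP. At least a 2-fold change was called for 27 genes in LNCaP and 34 in PC3. The share of all genes with such a change was not counted, so these counts do not set the matrix genes apart. The median log2 fold change was 0.17 over the 34 genes tested in LNCaP and -2.54 over the 38 in PC3, beside -0.06 and -0.01 over all genes tested.

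**Figure D3:**
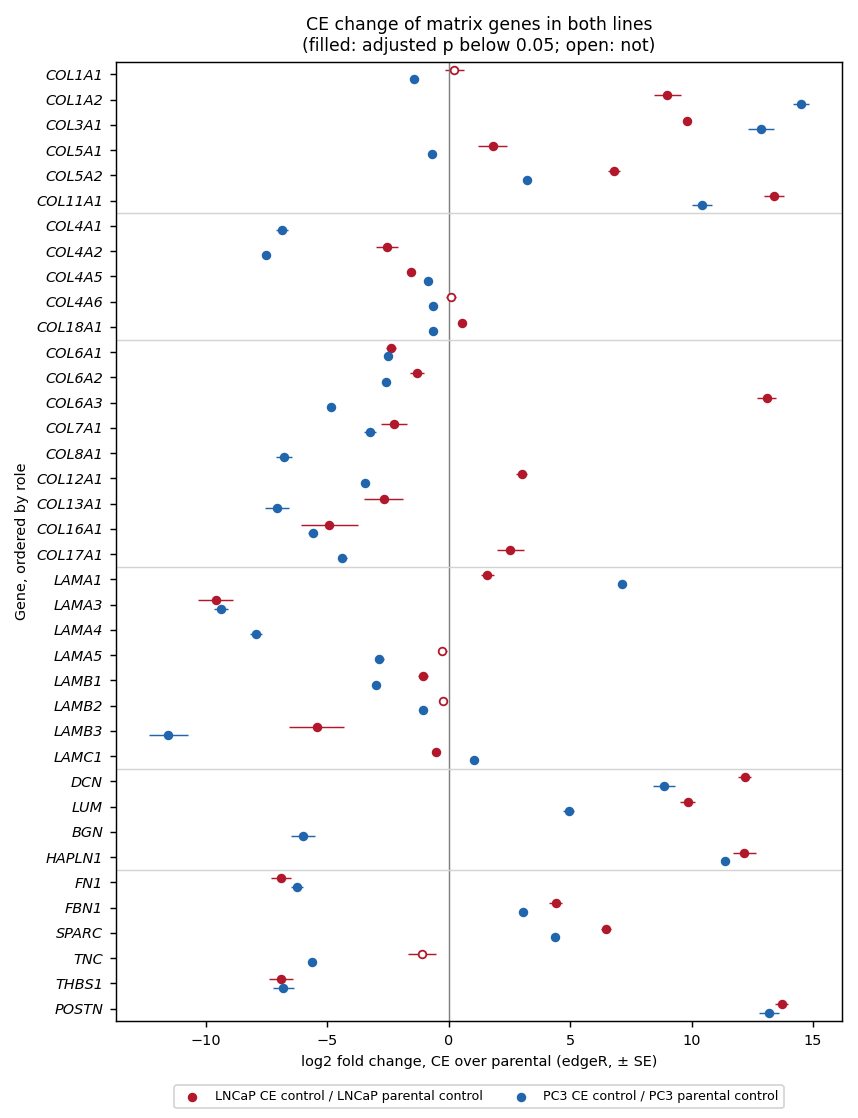
Log2 fold change ± SE of CE control over parental control for each matrix gene, in LNCaP (red) and PC3 (blue), with filled points for adjusted p below 0.05. COL6A3 lies far to the right in LNCaP (13.09) and to the left in PC3 (-4.82), while POSTN lies at 13.70 in LNCaP and 13.17 in PC3. Genes without a red point were not tested in LNCaP.

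Among fibrillar collagens, COL1A2 (chromosome 7, 94394561 to 94431232), the alpha2 chain of collagen I, was at 268, 273 and 286 TPM in LNCaP CE controls and 0.18, 1.01 and 0.79 TPM in LNCaP parental controls. It was at 2111, 2107 and 2119 TPM in PC3 CE controls and 0.06, 0.32 and 0.16 TPM in PC3 parental controls. In both lines every CE library lay above every parental one, with changes of 8.99 ± 0.55 (adjusted p = 6.46e-08) in LNCaP and 14.50 ± 0.35 (adjusted p = 1.83e-11) in PC3. COL1A1, the alpha1 chain that supplies 2 of the 3 chains of collagen I, did not move with it. It stood at 12.2 ± 0.686 TPM in LNCaP CE and 16.2 ± 7.85 TPM in LNCaP parental controls (log2 0.23 ± 0.39, adjusted p = 0.605), and at 11.2 ± 0.946 TPM in PC3 CE and 33.4 ± 4.28 TPM in PC3 parental controls (log2 -1.41 ± 0.17, adjusted p = 1.18e-05). The TPM ratio of COL1A2 to COL1A1 was 22.6 ± 1.80 in LNCaP CE and 0.0627 ± 0.0700 in LNCaP parental controls, and 189 ± 15.9 in PC3 CE and 0.00575 ± 0.00461 in PC3 parental controls (SD, n = 3 each).

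COL3A1 (chromosome 2, 188974320 to 189012746), the single chain of collagen III, was at 448, 446 and 473 TPM in LNCaP CE controls and 0.57, 0.57 and 0.75 TPM in LNCaP parental controls. It was at 853, 853 and 841 TPM in PC3 CE controls and 0.07, 0.03 and 0.31 TPM in PC3 parental controls. The changes were 9.81 ± 0.12 (adjusted p = 7.27e-13) in LNCaP and 12.84 ± 0.53 (adjusted p = 9e-10) in PC3, again with no overlap of libraries. COL5A2, a collagen V chain that helps start fibrils, was at 138, 140.1 and 145 TPM in LNCaP CE controls and 1.71, 1.09 and 2.49 TPM in LNCaP parental controls (log2 6.80 ± 0.25, adjusted p = 8.59e-10). In PC3 it was already expressed in parental cells, at 542 ± 9.98 TPM in PC3 CE and 59.6 ± 4.03 TPM in PC3 parental controls (log2 3.23 ± 0.11, adjusted p = 1.65e-10). Its partner chain COL5A1 was low throughout, at 0.54 ± 0.139 TPM in LNCaP CE and 0.25 ± 0.178 TPM in LNCaP parental controls (log2 1.81 ± 0.59, adjusted p = 0.0153), and at 2.06 ± 0.103 TPM in PC3 CE and 5.02 ± 0.246 TPM in PC3 parental controls (log2 -0.68 ± 0.12, adjusted p = 0.000186).

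COL11A1, a chain of the collagen XI of cartilage, was at 36.5, 37.0 and 38.3 TPM in LNCaP CE controls and 0, 0 and 0.04 TPM in LNCaP parental controls. The 3 parental libraries held 2 counts in all, so the ratio of scaled counts was 11360 with a 95% counting interval of 3143 to 93780. In PC3 CE controls it was at 3.74 ± 0.936 TPM, and the PC3 parental controls held 1 count (ratio 1864, interval 334 to 73650). The fitted changes of 13.38 ± 0.41 in LNCaP and 10.42 ± 0.40 in PC3 rest on the prior count that edgeR adds, as do those of other genes near 0 in a group. Such intervals cover counting error only, since PCR copies of a molecule were not identified.

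The link protein gene HAPLN1 and the proteoglycan genes DCN and LUM rose in both lines, and BGN did not. HAPLN1 (chromosome 5, 83637805 to 83721613), which links hyaluronan to proteoglycans, was at 749, 749 and 727 TPM in LNCaP CE controls and 0.16, 0.15 and 0.24 TPM in LNCaP parental controls. It was at 383, 372 and 371 TPM in PC3 CE controls and 0.06, 0.1 and 0.31 TPM in PC3 parental controls. The changes were 12.17 ± 0.48 (adjusted p = 1.7e-09) in LNCaP and 11.35 ± 0.16 (adjusted p = 1.42e-12) in PC3, and HAPLN1 was the most abundant matrix gene of LNCaP CE controls. DCN, decorin, which binds collagen fibres, was at 164, 152 and 161 TPM in LNCaP CE controls and 0.02, 0.07 and 0.11 TPM in LNCaP parental controls (log2 12.18 ± 0.27, adjusted p = 2.71e-11). It was at 11.3, 10.1 and 12.2 TPM in PC3 CE controls and 0, 0 and 0.03 TPM in PC3 parental controls, where 2 counts in all gave a ratio of 549 (interval 152 to 4537). LUM, lumican, a related proteoglycan that regulates fibril spacing, was at 109.9, 98.1 and 111 TPM in LNCaP CE controls and 0.04, 0.22 and 0.16 TPM in LNCaP parental controls (log2 9.83 ± 0.30, adjusted p = 2.52e-10). In PC3 it stood at 13.4 ± 1.20 TPM in CE and 0.487 ± 0.322 TPM in parental controls (log2 4.95 ± 0.22, adjusted p = 1.9e-09). BGN, biglycan, the close relative of decorin, went the other way in PC3, at 0.107 ± 0.0945 TPM in PC3 CE and 4.88 ± 0.833 TPM in PC3 parental controls (log2 -6.01 ± 0.49, adjusted p = 3.6e-07). In LNCaP it was near 0 in both, at 0.0933 TPM in LNCaP CE and 0.127 TPM in LNCaP parental controls.

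Of the 6 adhesive and matricellular genes, POSTN, SPARC and FBN1 rose and FN1 and THBS1 fell in both lines. POSTN (chromosome 13, 37562583 to 37598844), periostin, which binds collagen and integrins, was at 419, 391 and 422 TPM in LNCaP CE controls and 0.01, 0.05 and 0.04 TPM in LNCaP parental controls (log2 13.70 ± 0.28, adjusted p = 1.76e-11). It was at 88.7, 94.0 and 91.7 TPM in PC3 CE controls and 0, 0 and 0.11 TPM in PC3 parental controls, which held 2 counts in all (ratio 10930, interval 3025 to 90230). SPARC, a collagen-binding glycoprotein, stood at 87.0 ± 4.01 TPM in LNCaP CE and 1.37 ± 0.527 TPM in LNCaP parental controls (log2 6.48 ± 0.21, adjusted p = 3.83e-10). In PC3 it stood at 200.5 ± 10.1 TPM in CE and 9.33 ± 1.43 TPM in parental controls (log2 4.36 ± 0.13, adjusted p = 6.7e-11). FBN1, the fibrillin of microfibrils, stood at 10.7 ± 0.874 TPM in LNCaP CE and 0.92 ± 0.531 TPM in LNCaP parental controls (log2 4.40 ± 0.26, adjusted p = 4.27e-08), and at 7.39 ± 1.40 TPM in PC3 CE and 0.787 ± 0.117 TPM in PC3 parental controls (log2 3.05 ± 0.14, adjusted p = 1.58e-09).

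FN1 (chromosome 2, 215360440 to 215436172), fibronectin, the main ligand of several integrins, was at 2.42, 4.32 and 1.58 TPM in LNCaP CE controls and 310.0, 169.9 and 444 TPM in LNCaP parental controls (log2 -6.91 ± 0.40, adjusted p = 4.18e-08). In PC3 it stood at 2.62 ± 0.595 TPM in CE and 146 ± 12.6 TPM in parental controls (log2 -6.26 ± 0.25, adjusted p = 7.05e-10). THBS1 (chromosome 15, 39581079 to 39599466), a thrombospondin that can activate latent TGF-beta, was at 0.14, 0.25 and 0.58 TPM in LNCaP CE controls and 33.1, 14.0 and 40.4 TPM in LNCaP parental controls (log2 -6.89 ± 0.49, adjusted p = 2.27e-07). In PC3 it stood at 10.9 ± 0.291 TPM in CE and 1157 ± 109.9 TPM in parental controls (log2 -6.81 ± 0.43, adjusted p = 3.24e-08). FN1 and THBS1 thus moved opposite to POSTN and SPARC in both lines, and no CE library overlapped a parental one for any of these 4 genes. TNC, tenascin-C, an anti-adhesive glycoprotein, was lower in PC3, at 0.593 ± 0.131 TPM in CE and 25.2 ± 2.88 TPM in parental controls (log2 -5.63 ± 0.13, adjusted p = 1.26e-11). In LNCaP it was below 1 TPM in every library, and CE controls lay below all parental controls without a call (log2 -1.10 ± 0.56, adjusted p = 0.0957). It was called lower there with limma on log2(TPM + 1) (adjusted p = 0.0294) and on log2(TPM + 0.1) (adjusted p = 0.0144), and without LNCaP parental control 2 (log2 -1.52, adjusted p = 0.00976).

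Of the laminin chains, 4 of 7 tested were called lower and LAMA1 higher in LNCaP CE, the last by counts and not by TPM, while 6 of 8 fell and LAMA1 and LAMC1 rose in PC3 CE. LAMB3 (chromosome 1, 209614870 to 209652466) and LAMA3 are the beta and alpha chains of the laminin that anchors epithelial hemidesmosomes. LAMB3 was at 0.33, 0.33 and 0.25 TPM in PC3 CE controls and 593, 489.8 and 524 TPM in PC3 parental controls (log2 -11.54 ± 0.80, adjusted p = 7.92e-08). In LNCaP it was low in parental cells too, at 0.05 ± 0.0624 TPM in CE and 1.23 ± 0.777 TPM in parental controls (log2 -5.43 ± 1.14, adjusted p = 0.00117). LAMA3 was at 0.01, 0.11 and 0.13 TPM in LNCaP CE controls and 38.2, 21.9 and 43.0 TPM in LNCaP parental controls (log2 -9.59 ± 0.73, adjusted p = 3.99e-07). It was at 0.14, 0.22 and 0.29 TPM in PC3 CE controls and 111, 107 and 96.0 TPM in PC3 parental controls (log2 -9.36 ± 0.28, adjusted p = 6.92e-11). Both chains were abundant in PC3 parental cells, and LNCaP parental cells held the alpha chain with little of the beta chain.

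LAMA4, an alpha chain of vascular and muscle laminins, was at 0.19, 0.38 and 0.14 TPM in PC3 CE controls and 39.3, 34.7 and 30.4 TPM in PC3 parental controls (log2 -7.93 ± 0.23, adjusted p = 5.6e-11). LAMA1, the alpha chain of the embryonic laminin, moved the opposite way, at 20.3, 20.8 and 20.3 TPM in PC3 CE controls and 0.27, 0.19 and 0.53 TPM in PC3 parental controls (log2 7.11 ± 0.14, adjusted p = 5.68e-12). PC3 CE libraries lay below all parental ones for LAMA4 and above all of them for LAMA1. In LNCaP the LAMA1 call depended on the unit. The counts rose by 1.60 ± 0.28 (adjusted p = 0.000341), with 2022 expected counts in LNCaP CE and 766 in LNCaP parental controls, while the TPM were 3.40, 2.95 and 3.32 in CE and 3.13, 5.16 and 1.80 in parental controls and overlapped. With limma on log2(TPM + 1) the difference was 0.03 (adjusted p = 0.926). LAMB2, LAMB1 and LAMC1 are widely expressed beta and gamma chains. LAMB2 stood at 151 ± 12.1 TPM in LNCaP CE and 180.0 ± 53.5 TPM in LNCaP parental controls (log2 -0.21 ± 0.16, adjusted p = 0.246). It was called lower without LNCaP parental control 2 (log2 -0.38, adjusted p = 0.0182). In PC3 it stood at 372 ± 26.1 TPM in PC3 CE and 743 ± 48.4 TPM in PC3 parental controls (log2 -1.04 ± 0.11, adjusted p = 4.21e-06). LAMC1 was at 95.8 ± 1.58 TPM in LNCaP CE and 169 ± 34.9 TPM in LNCaP parental controls (log2 -0.54 ± 0.11, adjusted p = 0.000936), and at 119.8 ± 7.09 TPM in PC3 CE and 68.7 ± 5.92 TPM in PC3 parental controls (log2 1.05 ± 0.06, adjusted p = 2.39e-08). LAMB1 changed by -1.06 ± 0.21 (adjusted p = 0.000757) in LNCaP and -3.01 ± 0.08 (adjusted p = 2.31e-11) in PC3. LAMA5, the alpha chain of most adult epithelial basement membranes, stood at 80.9 ± 4.10 TPM in PC3 CE and 704 ± 83.8 TPM in PC3 parental controls (log2 -2.86 ± 0.18, adjusted p = 3.76e-08), with -0.26 ± 0.18 (adjusted p = 0.209) in LNCaP. LAMA5 too was called lower in LNCaP without that library (log2 -0.44, adjusted p = 0.021).

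Basement membrane collagens can be read as head-to-head gene pairs, which start close together on opposite strands. The starts of COL4A1 and COL4A2, the main collagen IV chains, lie 126 bases apart on chromosome 13. COL4A1 was at 0.26, 0.55 and 0.57 TPM in PC3 CE controls and 32.2, 35.4 and 29.7 TPM in PC3 parental controls (log2 -6.87 ± 0.24, adjusted p = 2.05e-10). COL4A2 was at 0.52, 0.61 and 0.77 TPM in PC3 CE controls and 85.5, 78.5 and 77.2 TPM in PC3 parental controls (log2 -7.52 ± 0.16, adjusted p = 9.26e-12). Both chains fell together in PC3, and the TPM ratio of COL4A2 to COL4A1 was 1.49 ± 0.461 in CE and 2.49 ± 0.236 in parental controls (SD, n = 3 each). In LNCaP, COL4A1 was at most 0.13 TPM in any control library, while COL4A2 was at 0.48, 0.11 and 0.11 TPM in CE and 1.54, 2.02 and 1.57 TPM in parental controls (log2 -2.53 ± 0.44, adjusted p = 0.00033).

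The second pair, COL4A6 and COL4A5, starts 379 bases apart on chromosome X, and its chains stood at very different levels in every group. COL4A5, whose upstream stretch is printed above, was at 6.04, 5.88 and 7.85 TPM in LNCaP CE controls and 19.3, 16.6 and 21.3 TPM in LNCaP parental controls (log2 -1.55 ± 0.09, adjusted p = 3.05e-08). It was at 19.9, 24.4 and 24.1 TPM in PC3 CE controls and 39.0, 45.0 and 34.3 TPM in PC3 parental controls (log2 -0.84 ± 0.11, adjusted p = 1.72e-05). COL4A6 was at 0.51, 0.7 and 0.77 TPM in LNCaP CE and 0.63, 0.53 and 0.94 TPM in LNCaP parental controls, and at 1.09, 0.94 and 1.02 TPM in PC3 CE and 1.90, 2.16 and 1.57 TPM in PC3 parental controls. The TPM ratio of COL4A5 to COL4A6 was 10.1 ± 1.72 in LNCaP CE and 28.2 ± 4.83 in LNCaP parental controls, and 22.6 ± 3.98 in PC3 CE and 21.1 ± 0.674 in PC3 parental controls (SD, n = 3 each). COL18A1, the collagen that yields endostatin, changed by 0.56 ± 0.14 (adjusted p = 0.00333) in LNCaP and -0.63 ± 0.10 (adjusted p = 0.000129) in PC3. Its change in LNCaP was 0.37 (adjusted p = 8.00e-06) without LNCaP parental control 2 and Acetalax 3.

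**Figure D4:**
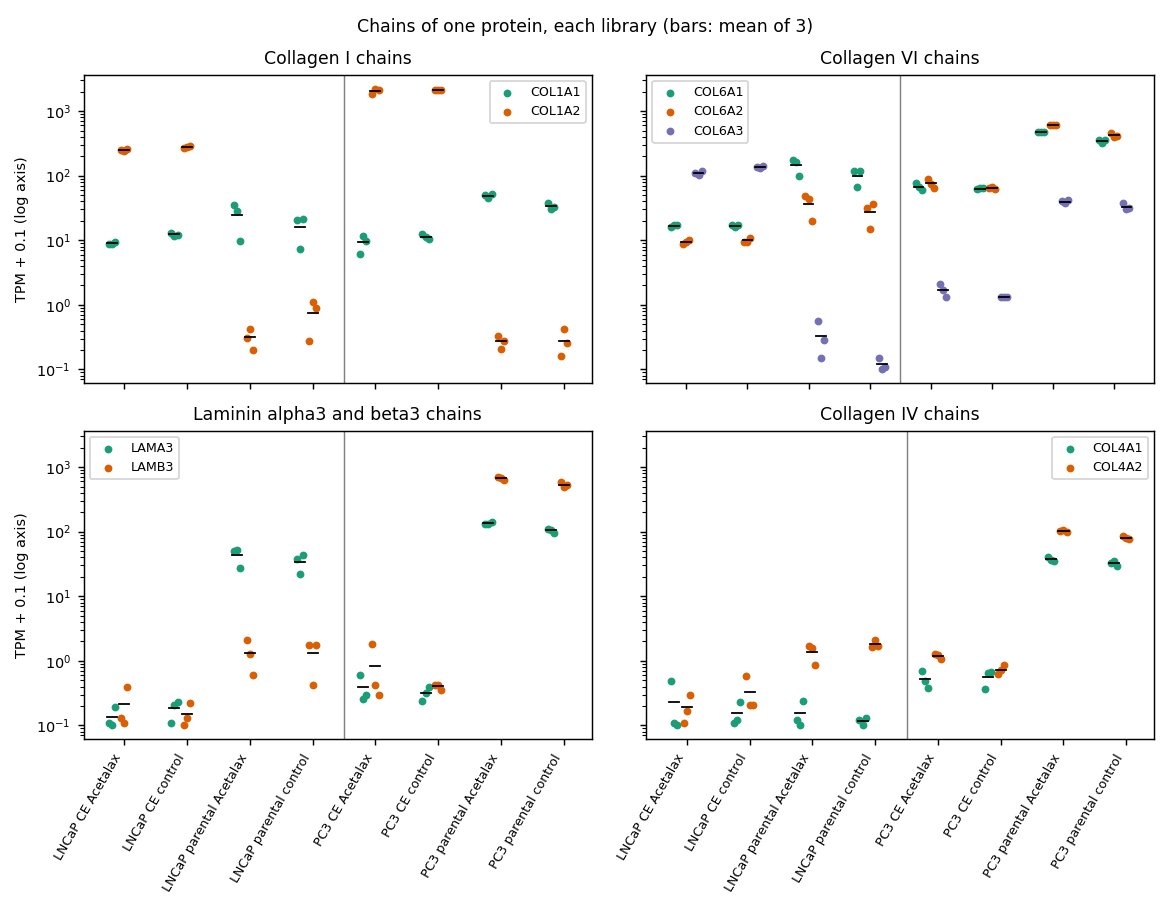
TPM + 0.1 (log axis) in each library for the chains of collagen I, collagen VI, the hemidesmosomal laminin (LAMA3 and LAMB3) and collagen IV, with bars at the mean of 3 libraries. COL1A2 stands above COL1A1 in all CE libraries and below it in all parental ones, and COL6A3 stands above COL6A1 and COL6A2 in LNCaP CE libraries only.

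Among the other collagen types, the chains of collagen VI changed in different directions in LNCaP. COL6A3 (chromosome 2, 237324003 to 237414375), the largest chain, was at 134, 130.1 and 143 TPM in LNCaP CE controls and 0.05, 0 and 0.01 TPM in LNCaP parental controls (log2 13.09 ± 0.40, adjusted p = 2.46e-10). In PC3 it stood at 1.22 ± 0.01 TPM in CE and 33.0 ± 3.82 TPM in parental controls (log2 -4.82 ± 0.14, adjusted p = 4.98e-11). COL6A1 and COL6A2, the partner chains that neighbour each other on chromosome 21, fell in both lines. COL6A1 stood at 16.7 ± 0.682 TPM in LNCaP CE and 99.7 ± 29.2 TPM in LNCaP parental controls (log2 -2.38 ± 0.20, adjusted p = 1e-06), and at 63.0 ± 1.58 TPM in PC3 CE and 346 ± 17.2 TPM in PC3 parental controls (log2 -2.51 ± 0.09, adjusted p = 4.19e-10). COL6A2 changed by -1.30 ± 0.29 (adjusted p = 0.00168) in LNCaP and -2.57 ± 0.11 (adjusted p = 1.08e-09) in PC3. The TPM ratio of COL6A3 to COL6A1 was 8.14 ± 0.355 in LNCaP CE and 0.00017 ± 0.00023 in LNCaP parental controls, and 0.0194 ± 0.00035 in PC3 CE and 0.0952 ± 0.00844 in PC3 parental controls (SD, n = 3 each).

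COL13A1, a membrane-spanning collagen of cell junctions, was at 1.28, 2.15 and 1.44 TPM in PC3 CE controls and 201, 214 and 189.7 TPM in PC3 parental controls (log2 -7.06 ± 0.50, adjusted p = 9.35e-08). In LNCaP its level was under 2 TPM in every control library, and its call (log2 -2.67 ± 0.80, adjusted p = 0.0105) was lost with limma on log2(TPM + 1), at adjusted p = 0.0676. COL7A1 changed by -2.25 ± 0.55 (adjusted p = 0.00323) in LNCaP and -3.24 ± 0.26 (adjusted p = 2.88e-07) in PC3, and COL16A1 by -4.91 ± 1.18 (adjusted p = 0.00287) and -5.60 ± 0.19 (adjusted p = 1.62e-10). In LNCaP the CE and parental controls overlapped for COL16A1, with parental control 2 at 1.01 TPM and a CE mean of 0.55 TPM. COL17A1, the membrane-spanning collagen of hemidesmosomes, and COL12A1, a collagen on fibril surfaces, were higher in LNCaP CE (log2 2.54 and 3.01), at levels of at most 1.58 TPM in any control library. Both were lower in PC3 CE (log2 -4.37 and -3.43). COL8A1, a short-chain collagen of vessel walls, stood at 0.03 ± 0.0173 TPM in PC3 CE and 2.81 ± 0.259 TPM in PC3 parental controls (log2 -6.78 ± 0.32, adjusted p = 2.87e-09).

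Whether the CE change differed between the lines was tested directly, as the LNCaP change minus the PC3 change over all 24 libraries. It differed for 27 of the 38 genes, 22 higher and 5 lower, where 56.8% of 21955 genes tested were called (25.7% higher and 31.2% lower). The sign does not say which line moved. COL4A1, COL8A1, LAMA4 and BGN had too few counts to be tested in LNCaP and passed the filter of this fit through PC3. Their positive difference follows from the fall in PC3, so the counts by sign do not support a direction. COL6A3 had the largest difference, 17.88 ± 0.38 (adjusted p = 1.5e-18), from opposite changes in the lines. The differences of LAMA4 (log2 10.66 ± 0.98, adjusted p = 9.37e-09) and COL4A1 (log2 8.42 ± 1.12, adjusted p = 1.69e-06) accompany a fall in PC3 and levels of at most 0.24 TPM in any LNCaP control library. COL17A1 differed by 6.89 ± 0.53 (adjusted p = 5.88e-10). For LAMA1 (log2 -5.54 ± 0.33, adjusted p = 1.17e-11) and COL1A2 (log2 -5.53 ± 0.59, adjusted p = 8.12e-08) the rise was larger in PC3. POSTN, HAPLN1, DCN, COL11A1, THBS1, FN1, LAMA3 and LAMB3 were among the 11 genes for which edgeR called no difference, and the interval of the difference reached from -0.25 to 1.82 for HAPLN1 and from -1.52 to 0.16 for FN1. That outcome depended on the tool and unit. DESeq2 called DCN (3.27, adjusted p = 0.0205), HAPLN1 (0.84, adjusted p = 0.0322) and LAMB3 (6.05, adjusted p = 1.08e-05). With limma on log2(TPM + 1) all 8 named genes were called: DCN (3.64), COL11A1 (3.03), POSTN (2.16), HAPLN1 (0.94), THBS1 (2.20), LAMA3 (1.46), LAMB3 (7.67) and FN1 (-0.95), with adjusted p from 7.62e-15 for DCN to 0.0476 for FN1. THBS1 and LAMA3 were at -0.11 and -0.26 with edgeR, the opposite sign. On log2(TPM + 0.1) limma called DCN, COL11A1, POSTN and LAMB3 of these. Without LNCaP parental control 2 and Acetalax 3 the count was 29, 23 higher and 6 lower, where 58.9% of all genes were called, with HAPLN1 (1.06, adjusted p = 0.0335) and FN1 (-0.96, adjusted p = 0.015) added.

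Genes that make, modify and degrade collagen were followed by list. Of 30 collagen processing genes, 19 were higher and 4 lower in LNCaP CE controls (29 tested) and 14 higher and 11 lower in PC3 CE controls (30 tested). For these lists the same background holds as for the matrix genes, with 36.0% of all genes higher and 39.3% lower in LNCaP CE and 38.5% higher and 39.0% lower in PC3 CE. SERPINH1, the collagen chaperone HSP47, stood at 472 TPM in LNCaP CE and 0.54 TPM in LNCaP parental controls (log2 9.91 ± 0.23, adjusted p = 3.86e-11), and at 382 TPM in PC3 CE and 54.6 TPM in PC3 parental controls (log2 2.698 ± 0.0833, adjusted p = 8.39e-11). PCOLCE, which enhances procollagen cleavage, stood at 290.1 TPM in PC3 CE and 23.9 TPM in PC3 parental controls (log2 4.56 ± 0.11, adjusted p = 1.84e-11). LOXL1, an elastin and collagen crosslinking oxidase, fell to 1.58 TPM in PC3 CE, against 403 TPM in PC3 parental controls (log2 -8.09 ± 0.20, adjusted p = 2.21e-11). The median change of the list was 1.19 in LNCaP and 0.38 in PC3.

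Of 23 proteases and inhibitors, 10 were higher and 6 lower in LNCaP CE (18 tested) and 12 higher and 7 lower in PC3 CE (21 tested). TIMP1, an inhibitor of metalloproteases, stood at 457 TPM in LNCaP CE and 0.273 TPM in LNCaP parental controls (log2 10.78 ± 0.26, adjusted p = 5.38e-11). MMP1 and MMP10, which cleave collagen and other matrix proteins, stood at 159.8 and 182 TPM in PC3 CE and 2.32 and 1.27 TPM in PC3 parental controls (changes of 6.03 ± 0.16 and 7.27 ± 0.18). Among 14 non-integrin receptors, DDR2, a receptor for fibrillar collagen, stood at 85.4 TPM in LNCaP CE and 0.807 TPM in LNCaP parental controls (log2 7.07 ± 0.14, adjusted p = 1.41e-11), and at 87.8 TPM in PC3 CE and 0.737 TPM in PC3 parental controls (log2 7.40 ± 0.30, adjusted p = 7.83e-10). DDR1, the epithelial collagen receptor, was lower in LNCaP CE (log2 -2.32 ± 0.14, adjusted p = 5.74e-08), and CD44, the hyaluronan receptor, fell to 1.60 TPM in PC3 CE, against 538 TPM in PC3 parental controls (log2 -8.67 ± 0.29, adjusted p = 1.36e-10). That list held 3 higher and 4 lower in LNCaP (13 tested) and 6 higher and 7 lower in PC3 (14 tested).

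Of 19 other laminin and basement membrane genes, 10 were higher and 6 lower in LNCaP CE (17 tested) and 5 higher and 10 lower in PC3 CE (15 tested). PXDN, which crosslinks collagen IV, stood at 0.7 TPM in PC3 CE and 165 TPM in PC3 parental controls (log2 -9.44 ± 0.35, adjusted p = 3.44e-10), and FBLN1, a fibulin, at 91.1 TPM in LNCaP CE and 0.573 TPM in LNCaP parental controls (log2 7.58 ± 0.22, adjusted p = 2.04e-10). Of 24 other collagen chains, 8 were higher and 1 lower in LNCaP CE (14 tested) and 9 higher and 8 lower in PC3 CE (20 tested), with COL26A1 and COL27A1 higher in both. Of 38 other glycoproteins and proteoglycans, 14 were higher and 5 lower in LNCaP CE (24 tested) and 14 higher and 8 lower in PC3 CE (26 tested). Of 20 genes of TGF-beta signalling, which drives collagen expression in many cells, 14 were higher and 2 lower in LNCaP CE and 10 higher and 7 lower in PC3 CE, all tested. TGFB1 stood at 80.9 TPM in LNCaP CE and 1.41 TPM in LNCaP parental controls (log2 6.11 ± 0.80, adjusted p = 3.47e-05), and TGFB2 at 5.29 TPM in PC3 CE and 147 TPM in PC3 parental controls (log2 -4.84 ± 0.14, adjusted p = 4.93e-11). In LNCaP, TGFB2 went the opposite way, at 1.59 TPM in LNCaP CE and 0.0433 TPM in LNCaP parental controls (log2 5.00 ± 0.44, adjusted p = 1.19e-06), and the difference between the lines was 9.82 ± 0.32 (adjusted p = 5.02e-16). Without LNCaP parental control 2 and Acetalax 3, where 40.6% of all genes were higher and 44.2% lower in LNCaP CE, the count of other collagen chains was 10 higher and 6 lower, and that of the other lists moved by less than 1.5 times, with collagen processing genes at 20 higher and 9 lower.

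The next comparisons asked how matrix genes responded to 4 h of Acetalax, and the responses were small beside the CE changes. In PC3 parental cells 6 of the 38 genes were called, all higher, where 7.80% of all genes tested were called (3.49% higher and 4.31% lower). COL6A2 was at 608, 604 and 603 TPM in Acetalax libraries and 459, 399.8 and 413 TPM in controls (log2 0.59 ± 0.10, adjusted p = 0.00554). COL6A1 was at 480.4, 481 and 471 TPM in Acetalax libraries and 358, 326 and 354 TPM in controls (log2 0.49 ± 0.09, adjusted p = 0.00689). Treated libraries lay above all controls for both chains. COL18A1 was at 71.4, 71.9 and 68.5 TPM in Acetalax libraries and 54.4, 45.6 and 50.8 TPM in controls (log2 0.51 ± 0.10, adjusted p = 0.0114). LAMC1 was at 85.8, 81.3 and 87.2 TPM in Acetalax libraries and 70.5, 73.4 and 62.0 TPM in controls (log2 0.39 ± 0.06, adjusted p = 0.00394). LAMB1 was at 378, 383 and 354 TPM in Acetalax libraries and 302, 328 and 279 TPM in controls (log2 0.39 ± 0.07, adjusted p = 0.00684). TNC was at 37.2, 33.8 and 29.1 TPM in Acetalax libraries and 28.4, 24.2 and 22.9 TPM in controls (log2 0.39 ± 0.10, adjusted p = 0.0377). The 3 treated libraries lay above the 3 controls for each of these genes, and some calls did not hold. TNC was not called with no low-count filter (adjusted p = 0.0885), with limma on log2(TPM + 1) (adjusted p = 0.0983) or log2(TPM + 0.1) (adjusted p = 0.272), or with any of 5 single libraries left out (adjusted p = 0.0751 to 0.158). COL18A1 was not called without control 2 (adjusted p = 0.0529) or Acetalax 2 (adjusted p = 0.063).

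These calls come from a fit that also holds the PC3 CE libraries, and the count changed with the libraries in the fit. The cause was not tested. With only the 6 PC3 parental libraries 27 matrix genes were called, 25 higher and 2 lower, where 27.0% of all genes were, and leaving PC3 CE Acetalax 1 out of the fit gave the same counts beside 27.3% of all genes. The genes called then include THBS1, at 1559 ± 90.2 TPM in Acetalax libraries and 1157 ± 109.9 TPM in controls (0.45), LAMB2 (0.39), LAMA5 (0.42), LAMB3 (0.35), FN1 (0.40) and COL4A2 (0.37). In TPM the treated libraries lay above all controls for 19 genes, below for 1 and overlapped for 18. This was not counted over all genes, so it does not set the matrix genes apart. The median change over the 38 genes was 0.32, beside 0 over all genes tested.

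In PC3 CE cells Acetalax gave 5 calls, all higher, where 8.15% of all genes were called (4.67% higher and 3.47% lower). COL7A1 was at 12.7, 4.36 and 6.36 TPM in Acetalax libraries and 3.77, 4.46 and 3.73 TPM in controls (log2 0.92 ± 0.25, adjusted p = 0.0425), with PC3 CE Acetalax 1 the highest and some overlap with the controls. The COL7A1 call was lost with a replicate block (adjusted p = 0.0748) and with limma on log2(TPM + 1) (adjusted p = 0.119). Leaving out any single control also lost it (adjusted p = 0.118 to 0.153). LAMB1 was at 44.1, 43.4 and 44.0 TPM in Acetalax libraries and 37.7, 39.3 and 40.3 TPM in controls (log2 0.25 ± 0.07, adjusted p = 0.0491), and every treated library lay above every control. Its call was lost with no low-count filter (adjusted p = 0.143), a replicate block (adjusted p = 0.0866) and limma on log2(TPM + 1) (adjusted p = 0.176). It was also lost with any single control left out (adjusted p = 0.121 to 0.204). The other called genes, COL12A1 (0.76 ± 0.17), COL4A2 (0.61 ± 0.15) and TNC (0.49 ± 0.12), had group means of at most 1.08 TPM. Each lost its call in several alternatives, such as edgeR with only the libraries compared (adjusted p = 0.132, 0.204 and 0.187 in that order). Without PC3 CE Acetalax 1 the count was 6, where 16.4% of all genes were called: COL4A2 lost its call (adjusted p = 0.0511), FBN1 (0.32) and THBS1 (0.35, against 1.08 with all libraries) gained one, and COL7A1 was at 0.46 (adjusted p = 0.00309). With Acetalax 3 left out it was 13, with control 3 left out it was 0, and with only the 6 libraries compared it was 0. With Acetalax 2 left out it was 3, and with control 1 or control 2 left out it was 1. For these smaller fits the share of all genes called is not given, so the counts show only that the calls depend on the libraries. The difference between the PC3 responses, CE minus parental, was called for LAMA1 alone (log2 0.86 ± 0.20, adjusted p = 0.024), where 8.03% of all genes were called (4.59% higher and 3.44% lower). LAMA1 was at 25.1, 22.3 and 23.1 TPM in PC3 CE Acetalax libraries and 20.3, 20.8 and 20.3 TPM in PC3 CE controls, and at 0.16, 0.17 and 0.25 TPM in PC3 parental Acetalax libraries and 0.27, 0.19 and 0.53 TPM in PC3 parental controls. That call was lost with a replicate block (adjusted p = 0.0556) and with limma on log2(TPM + 1) (adjusted p = 0.238), and its adjusted p was 0.0158 to 0.308 over all alternatives. Without PC3 CE Acetalax 1 the count was 9, 2 higher and 7 lower, and leaving out any other single library gave 0 to 2. The share of all genes called is not given for these fits either.

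In LNCaP parental cells 3 of 34 genes tested were called, where 8.45% of all genes were (4.04% higher and 4.41% lower). FBN1 was at 2.62, 2.22 and 3.62 TPM in Acetalax libraries and 1.47, 0.41 and 0.88 TPM in controls (log2 1.11 ± 0.24, adjusted p = 0.0161), with every treated library above every control. COL1A2 (log2 -2.82 ± 0.59, adjusted p = 0.0142) and COL3A1 (log2 -0.43 ± 0.10, adjusted p = 0.0192) were lower, at group means of at most 0.66 TPM. The libraries that stand apart touched this comparison most. Without LNCaP parental control 2 and Acetalax 3 the count was 13, 11 higher and 2 lower, where 26.6% of all genes were called. Of the 3 genes above, FBN1 (0.70) and COL1A2 (-1.70) were among those 13 at smaller changes, and COL3A1 was not (adjusted p = 0.149). COL6A1, for instance, was at 176, 165 and 99.3 TPM in Acetalax libraries 1, 2 and 3 and 117, 66.0 and 116 TPM in controls 1, 2 and 3 (log2 0.61 ± 0.19, adjusted p = 0.0858 with all libraries). The 2 treated libraries that remain lie above both remaining controls. With Acetalax 3 alone left out the count was 8, with Acetalax 2 left out it was 1, and with only the 6 libraries compared it was 0. These last counts stand without the share of all genes called and show only a dependence on the libraries.

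In LNCaP CE cells no matrix gene was called of 34 tested, where 7.40% of all genes were (3.34% higher and 4.06% lower), and 0 had an unadjusted p below 0.05 in edgeR's test. DESeq2 called 4, all higher: DCN, LUM, HAPLN1 and POSTN. The edgeR changes were 0.22 ± 0.14, 0.39 ± 0.18, 0.28 ± 0.29 and 0.19 ± 0.15 for these genes, and the 95% interval for POSTN was -0.13 to 0.52. Without the LNCaP parental libraries that stand apart 8 were called, where 34.1% of all genes were. With only the 6 libraries compared 13 were called, where 49.4% of all genes were. COL6A3 stood at 111, 103 and 119.6 TPM in Acetalax libraries and 134, 130.1 and 143 TPM in controls (log2 -0.14 ± 0.22, adjusted p = 0.832). For the difference between the LNCaP responses, CE minus parental, 0 genes were called (7 at an unadjusted p below 0.05 in edgeR and 3 with DESeq2), where 1.28% of all genes were (0.583% higher and 0.701% lower). Without the 2 LNCaP parental libraries that stand apart it was 11, a count given without the share of all genes called. For the difference of the parental responses, LNCaP minus PC3, 0 were called (5 at an unadjusted p below 0.05 and 1 with DESeq2), where 5.05% were (3.15% higher and 1.90% lower), and again 0 without those libraries, where 6.97% were. A p above the threshold does not show that responses were alike.

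**Figure D5:**
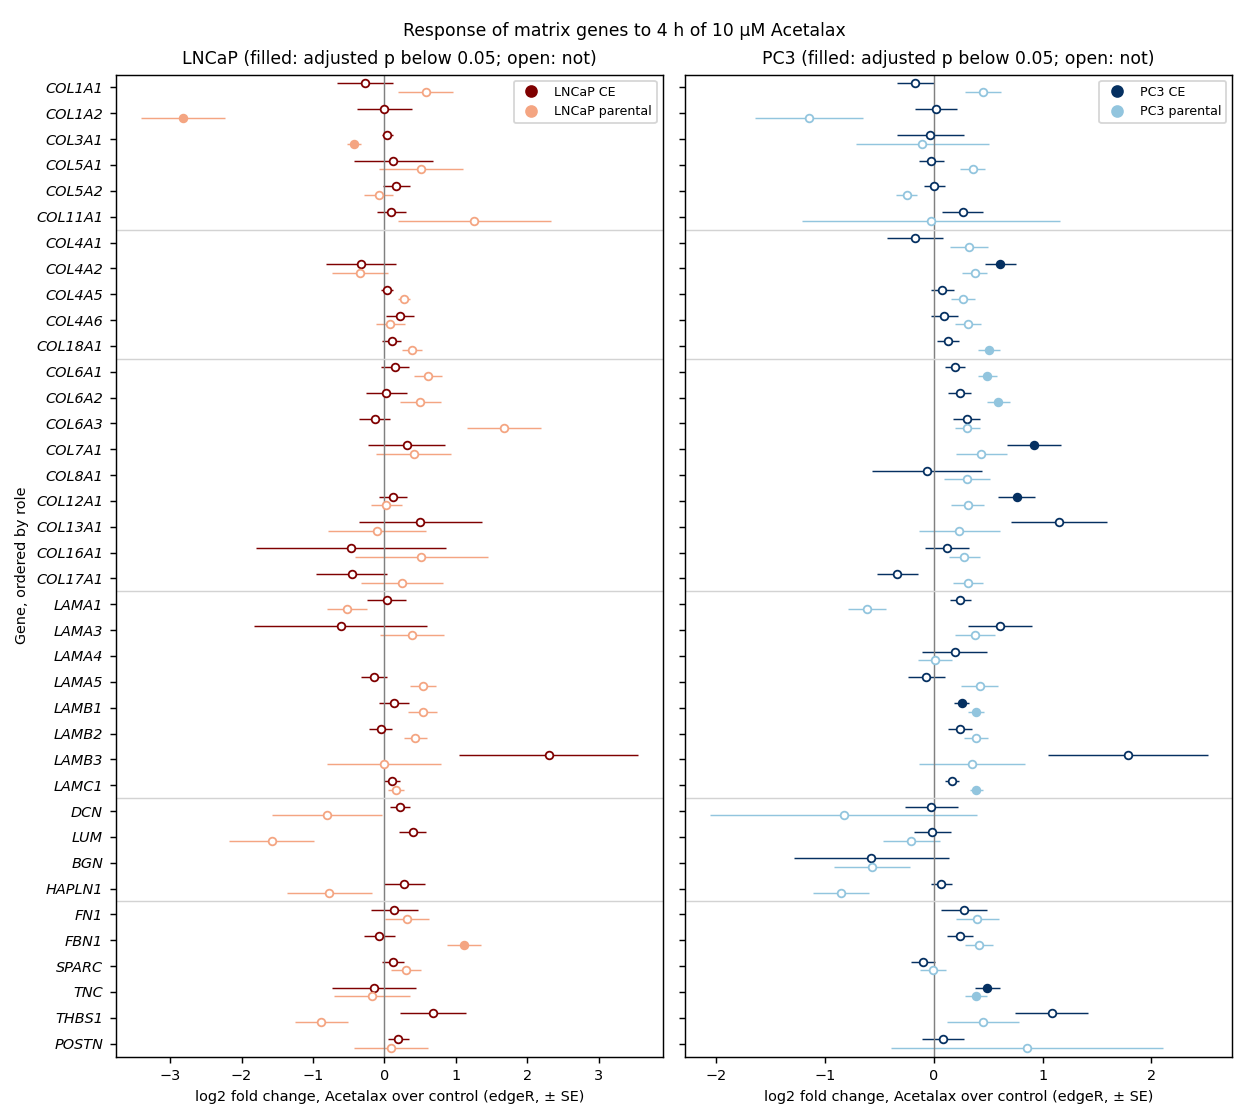
Log2 fold change ± SE of Acetalax over control for each matrix gene, in LNCaP CE and LNCaP parental cells (left) and in PC3 CE and PC3 parental cells (right), with filled points for adjusted p below 0.05. Filled points number 0 in LNCaP CE, 3 in LNCaP parental, 5 in PC3 CE and 6 in PC3 parental cells.

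After Acetalax, the TGF-beta list had 3 of 20 genes called higher in LNCaP CE, 2 higher and 1 lower in LNCaP parental, 8 higher in PC3 CE, and 2 higher and 3 lower in PC3 parental cells. Over all genes the shares higher were 3.34%, 4.04%, 4.67% and 3.49% in that order, and the shares lower 4.06%, 4.41%, 3.47% and 4.31%. The summed level of the list was 1716 TPM in 1 of the PC3 CE Acetalax libraries, the highest, and 1037 TPM in the lowest, against 845 to 868 TPM in PC3 CE controls. Without PC3 CE Acetalax 1 the PC3 CE count was 9 higher, including the 8 called with all libraries, where 7.77% of all genes were higher, and the PC3 parental count was 8 higher and 6 lower (13.0% and 14.4%). With LNCaP parental control 2 and Acetalax 3 left out it was 8 higher and 2 lower in LNCaP CE (17.7% and 16.4%) and 7 higher and 2 lower in LNCaP parental cells (14.3% and 12.3%). SMAD7, an inhibitor of the pathway, changed by 0.99 ± 0.19 (adjusted p = 0.0111) in LNCaP CE and 1.14 ± 0.14 (adjusted p = 0.00114) in PC3 CE cells. CCN2, a target of the pathway, changed by 1.92 ± 0.42 (adjusted p = 0.019) in PC3 CE cells, and by 0.98 (adjusted p = 1.23e-06) without PC3 CE Acetalax 1. ADAMTS1, a protease that cleaves proteoglycans, was higher in LNCaP CE (log2 0.84 ± 0.15) and PC3 CE (log2 0.80 ± 0.14) and lower in LNCaP parental cells (log2 -1.38 ± 0.15). Without the libraries that stand apart these changes were 0.85, 0.97 and -1.61. Of the collagen processing genes, 4 of 30 were higher in PC3 parental cells (11 higher and 1 lower without PC3 CE Acetalax 1 in the fit), including SERPINH1 (log2 0.40 ± 0.08, adjusted p = 0.011) and P3H3 (log2 0.59 ± 0.11, adjusted p = 0.00859).

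Between lines, 32 matrix genes differed in LNCaP against PC3 parental controls, 5 higher and 27 lower, where 70.3% of all genes were called (35.5% higher and 34.7% lower). These counts were the same without LNCaP parental control 2 and Acetalax 3, where 70.0% of all genes were called. COL4A1, COL8A1, LAMA4 and BGN were near 0 in LNCaP parental controls and passed the filter through PC3. They could only be called lower, so the counts do not support a direction. The median was -2.28 over the 38 genes, beside 0 over all genes tested. LAMA4 was at 0.09, 0 and 0.01 TPM in LNCaP parental and 39.3, 34.7 and 30.4 TPM in PC3 parental controls (-12.06 ± 0.45), and COL4A1 at 0.02, 0 and 0.03 TPM in LNCaP parental and 32.2, 35.4 and 29.7 TPM in PC3 parental controls (-11.46 ± 0.50). LAMB1 was at 1.54, 1.02 and 2.03 TPM in LNCaP parental and 302, 328 and 279 TPM in PC3 parental controls (log2 -7.77 ± 0.16, adjusted p = 5.69e-19). COL6A3, LAMB3 and COL13A1, whose values are given above, were lower in LNCaP (log2 -10.95, -9.11 and -7.93). The 5 genes higher in LNCaP were LAMA1 (2.99), COL1A2 (2.72), COL3A1 (2.29), LAMC1 (1.44) and FN1 (1.04), of which COL1A2 and COL3A1 were near or under 1 TPM in both lines.

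Between the CE controls, 29 differed, 9 higher and 20 lower in LNCaP CE than in PC3 CE, where 41.0% of all genes were called (16.7% higher and 24.2% lower). COL6A3 (log2 6.94 ± 0.23, adjusted p = 3.05e-15), DCN (log2 3.98 ± 0.18, adjusted p = 4.73e-13), COL11A1 (log2 3.55 ± 0.20, adjusted p = 1.07e-11) and LUM (log2 3.21 ± 0.18, adjusted p = 1.34e-11) were higher in LNCaP CE, at the values given above. LAMB1 was at 0.71, 0.6 and 0.88 TPM in LNCaP CE and 37.7, 39.3 and 40.3 TPM in PC3 CE controls (log2 -5.84 ± 0.15, adjusted p = 6.72e-17). THBS1 was at 0.14, 0.25 and 0.58 TPM in LNCaP CE and 11.2, 10.8 and 10.6 TPM in PC3 CE controls (log2 -5.50 ± 0.47, adjusted p = 7.8e-09). COL1A2 was lower in LNCaP CE (log2 -2.81 ± 0.34, adjusted p = 9.59e-07), and the median over the 38 genes was -1.06, beside -0.07 over all genes tested.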

How the data were processed

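The authors deposited tables of expected counts (RSEM estimates, not normalized) and of TPM for 60660 features in 24 libraries. The submitters' processing notes name FastQC, STAR 2.7, RSEM and GRCh38/hg38. The annotation release is not given in the sources used here, nor is the strand setting. Without a known strand setting, overlapping genes on opposite strands may share reads, which concerns COL4A1 with COL4A2. Table columns of no sample, 2 in all, were not used.

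The 38 genes and all lists were chosen with earlier results of these data known. Expected counts, of which 10.2% were not whole numbers, were rounded. Genes were kept by edgeR's filterByExpr (minimum count 10), scaled by TMM and tested with edgeR 4.0.16 (quasi-likelihood, R 4.3.3) in 1 fit per line of 12 libraries, or in 1 fit of all 24 for comparisons between lines. Adjusted p below 0.05 was called. Standard errors were taken from the fold change and the F statistic. The steps were checked on simulated counts with the same dispersion for every gene and no library that stands apart. Changes were set only in well-counted genes and were not small, so the check covers neither genes near 0 nor small responses. Alternatives used limma 3.58.1, DESeq2 1.42.0, RLE scaling, no filter, a replicate block, fewer libraries and leaving out each library.

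Levels are the deposited TPM. Pairs of replicates differed by more than sampling noise in every group (chi-square over degrees of freedom 3.57 to 292). Values of every library were given for called genes ranked by absolute fold change among those with at least 5 TPM in one of the groups compared, up to 12 for each CE comparison and 6 for others, plus the COL4 pairs, and at most 4 genes of each other list. Further genes were named after their values were seen. Gene positions are from GENCODE 29 on GRCh38, in which 58429 feature IDs matched. Some items are not reported here.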

Additional observations from a re-analysis of the deposited data

Results flagged for a closer look

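The change of 27 matrix genes in CE controls against parental controls differed between the lines by edgeR's test of the difference. Given as the log2 change in LNCaP minus that in PC3, it was positive for COL6A3 (17.88), LAMA4 (10.66), COL8A1 (9.21), COL4A1 (8.42), COL17A1 (6.89), COL12A1 (6.41), BGN (6.04), COL4A2 (4.97), LUM (4.86), TNC (4.52) and COL13A1 (4.37). It was also positive, and smaller, for COL5A2 (3.54), LAMA5 (2.57), COL5A1 (2.47), SPARC (2.09), LAMB1 (1.93), COL1A1 (1.61), FBN1 (1.32), COL6A2 (1.24), COL18A1 (1.17), LAMB2 (0.80) and COL4A6 (0.73). It was negative for LAMA1 (-5.54), COL1A2 (-5.53), COL3A1 (-3.06), LAMC1 (-1.62) and COL4A5 (-0.73). The difference of COL5A2 accompanied a rise in both lines, and that of COL6A3 a rise in LNCaP and a fall in PC3. For LAMA4, COL8A1, COL4A1 and BGN the sign was fixed by the fall in PC3, since they had too few counts to be tested in LNCaP.

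The Acetalax response of LAMA1 differed between PC3 CE and PC3 parental cells by 0.86 on the log2 scale, CE minus parental, with the call lost in 10 alternatives.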

How the results depend on the processing

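The counts of called genes in the CE comparisons and between lines changed by less than 1.5 times under every alternative run: 28 to 33 genes in LNCaP CE, 37 or 38 in PC3 CE, 27 to 34 for the difference of the CE changes, 31 to 33 between parental controls and 27 to 33 between CE controls. The Acetalax counts did not hold in this way, and the cause was not tested. Most stand below without the share of all genes called, which also moved between fits. They describe how the calls depend on processing and not a trait of matrix genes. With DESeq2 they were 12 in PC3 parental, 7 in LNCaP parental, 8 in PC3 CE and 4 in LNCaP CE cells, and 2, 3 and 1 for the response differences of PC3, LNCaP and the parental lines. With only the libraries compared they were 27 in PC3 parental, 0 in LNCaP parental, 0 in PC3 CE and 13 in LNCaP CE cells. With PC3 CE Acetalax 1 left out of the shared fit they were 27 in PC3 parental cells and 1 for the parental response difference. Without LNCaP parental control 2 and Acetalax 3 they were 13 in LNCaP parental cells, 8 in LNCaP CE cells and 11 for the LNCaP response difference. With limma on log2(TPM + 1) they were 1 in LNCaP parental cells, 1 in PC3 CE cells, 0 for the PC3 response difference, 1 for the LNCaP one and 1 for the parental one. With limma on log2(TPM + 0.1) they were 1 in PC3 CE cells and 0 for the PC3 response difference, which was also 0 with no low-count filter. Leaving out 1 library gave 4 to 6 in PC3 parental, 1 to 8 in LNCaP parental, 0 to 13 in PC3 CE and 0 to 0 in LNCaP CE cells, and 0 to 9, 0 to 2 and 0 to 1 for the response differences of PC3, LNCaP and the parental lines.

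With a replicate block the count was 3 in PC3 CE cells under Acetalax and 0 for the PC3 response difference, and the block moved no other count by over 1.5 times. In no pair of groups did all samples with the same number correlate above 0.1 in their deviations. Between LNCaP parental Acetalax and control, which hold libraries that stand apart, the correlations were -0.5903 to 0.3332. Such correlations cannot show whether samples with the same number were grown or handled together. FBN1, lower in LNCaP than in PC3 parental controls by counts (-0.68), was at 0.068 with limma on log2(TPM + 1) and 0.066 on log2(TPM + 0.1). Of 2626 fold changes of called genes recomputed under an alternative, 2538 kept direction and call, 86 lost the call and 2 changed sign. TPM moved the median of all genes relative to TMM by -0.1011 for the difference of the CE changes, -0.1288 for LNCaP CE Acetalax and -0.117 between CE controls. Genes near 0 in a group have fold changes that depend on the prior count, and 3 libraries per group limit what small responses can be called. The lists of other matrix genes were also counted without the libraries that stand apart, an alternative chosen after seeing the data.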
